A study of Sus scrofa with 10 samples.

Results

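Interferon-stimulated genes were described in the liver of 10 pigs, as a set of 9 genes: *MX1*, *MX2*, *ISG15*, *OAS1*, *OAS2*, *IRF1*, *RSAD2*, *USP18* and *IFIT3*. A gene was measured through the probe sets (groups of short probes read as 1 transcript) to which the platform annotation gives its symbol and no other, and its value was the mean of those with a mean log2 intensity of at least 4 over the 10 arrays. Of the 9 genes, 8 had such probe sets and were measured, among 4730 measured genes out of the 6765 that had a probe set of their own. *OAS2* had no probe set of its own symbol in the annotation used and was not analysed here. The 8 genes had 12 probe sets, of which 9 were used and 3 lay below the limit. The lowest probe set above that limit was the used one of *MX2*, with a mean of 4.50, and the highest below it was a control probe set for the middle of *RSAD2*, with a mean of 2.63, well under the limit. The set was proposed with its log2 intensities in these animals known and is taken as chosen by the way they varied together, so that pattern is given as a description without a test.

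The H group held 5 females and the L group 5 females, the high and the low end of a ranking by the first principal component of traits dominated by the fatty acid composition of muscle. All animals came from a backcross in which boars born to Iberian and Landrace parents were mated to Landrace sows. Each animal gave 1 liver RNA sample and 1 Affymetrix GeneChip Porcine array, so the animal is the replicate, and no allele or treatment was assigned to either group. Sibs had been placed in opposite groups, but the sources used here do not say which animals are sibs. The animals are named H1 to H5 and L1 to L5.

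Interferons are secreted proteins that warn cells of viral infection. Type I and type III interferons bind their receptors, the kinases *JAK1* and *TYK2* are activated, and a complex that holds *STAT2* and *IRF9* enters the nucleus and switches on a large set of antiviral genes. Interferon gamma acts through a different receptor and favours antigen presentation genes and the transcription factor *IRF1*. In the liver, hepatocytes as well as Kupffer cells, the resident macrophages, can respond.

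The deposited values were log2 intensities with a common lowest value of 2.19 on each array, and array medians were 3.78 to 3.85. Pairs of arrays correlated over genes with a Pearson's r of 0.966 to 0.989, with no array standing apart. The difference between the 3' and 5' control probe sets of *GAPDH*, which grows as RNA degrades, was 1.70 to 2.39 in H and 1.68 to 2.70 in L on the log2 scale. Of 14 hepatocyte markers 12 were measured, as the tissue label has it.

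Among the antiviral effectors, *MX1*, a dynamin-like GTPase that traps viral ribonucleoproteins, had log2 intensities of 8.85, 9.12, 7.91, 9.80 and 9.59 in H1 to H5, against 8.66, 10.32, 10.36, 9.12 and 7.40 in L1 to L5. L2 and L3 were the highest and L5 the lowest, so the L group enclosed all 5 H animals. The highest animal was 7.76-fold above the lowest. The mean of *MX1* was 9.05 ± 0.74 in H and 9.17 ± 1.24 in L (n = 5 animals per group, SD), and H minus L was -0.12 (SE 0.57) on the log2 scale, with a 95% confidence interval of -1.39 to 1.15. As in any bulk sample, fewer cells of a type and less RNA per cell cannot be told apart in these levels.

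*RSAD2*, which encodes viperin, an enzyme that makes a chain-terminating nucleotide, had 7.20, 6.93, 6.81, 7.95 and 7.49 in H, against 6.52, 9.11, 8.47, 6.76 and 5.75 in L. Again L2 and L3 were the highest and L5 the lowest, and the 5 H animals lay within the range of L. This gene had the widest range of the 8, 10.3-fold between L2 and L5. Its value joined a regular probe set and a control probe set for the 3' end of the transcript, which correlated over the 10 animals with an r of 0.986. The control probe set for the middle of the transcript fell below the limit on the mean, and the one for the 5' end was at the lowest value of 2.19 on all arrays but that of L2, where it was 2.49.

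*OAS1*, which on sensing double-stranded RNA makes 2'-5' linked oligoadenylates that activate RNase L, had 6.80, 7.19, 6.02, 6.61 and 5.78 in H, against 6.22, 8.05, 8.17, 6.91 and 5.07 in L. L3 and L2 were above all H animals and L5 was below all of them. *IFIT3*, which in humans steadies the *IFIT1* protein on viral RNA, had 7.68, 7.42, 7.17, 7.15 and 7.54 in H, against 7.02, 8.81, 8.0, 6.63 and 6.58 in L. Here the 5 H animals lay close together, with an SD of 0.23 against 0.97 in L, and L2 stood highest.

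In the *ISG15* system, H4 ranked between L2 and L3 at the top. *ISG15*, a ubiquitin-like modifier that is attached to proteins during the interferon response, had 6.64, 7.15, 7.30, 9.37 and 8.40 in H, against 7.27, 9.57, 9.32, 7.71 and 6.33 in L. H4 lay beside L2 and L3, well above H1, and the groups overlapped over nearly their whole range. The highest animal was 9.43-fold above the lowest, and only 33 of the 4730 genes (0.698%) had a larger SD over the 10 animals. *USP18*, the protease that removes *ISG15* and that also holds back signalling at the type I receptor, had 6.96, 7.04, 6.52, 8.23 and 7.72 in H, against 7.13, 8.22, 8.33, 7.06 and 5.45 in L. H4, L2 and L3 were nearly level at the top, and L5 was more than 1 log2 unit below every other animal.

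The other 2 measured genes hardly varied. *IRF1*, the transcription factor that interferon gamma induces, had 8.05, 8.21, 8.27, 7.83 and 8.34 in H, against 8.14, 8.24, 8.26, 8.30 and 8.30 in L. Its SD over the 10 animals was 0.15, below the median of 0.22 for all measured genes, and H4, high for *ISG15* and *USP18*, was its lowest animal. *MX2*, a paralog of *MX1* that lies next to it in the Sscrofa11.1 reference annotation, had 4.56, 4.53, 4.51, 4.25 and 4.51 in H, against 4.52, 4.60, 4.52, 4.49 and 4.52 in L. This probe set was dim, and the other one of *MX2* was at the lowest value of 2.19 on all 10 arrays, so how far the *MX2* transcript varied could not be read here.

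**Figure D1:**
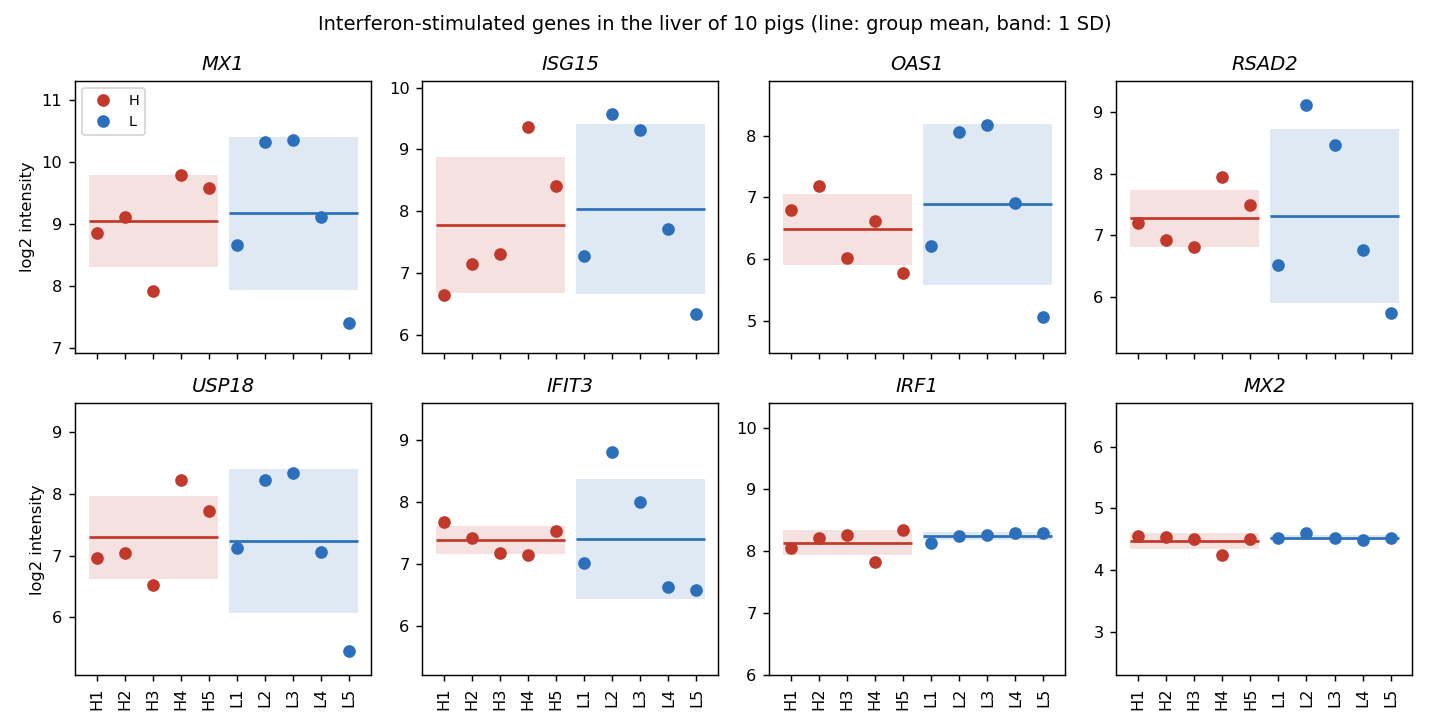
Log2 intensity (vertical axis) of the 8 measured genes in each animal (horizontal axis, H animals in red and then L animals in blue), with the group mean as a line and 1 SD as a band; each panel spans 4.4 log2 units. L2 and L3 stand high and L5 lowest in the first 6 panels, while *IRF1* and *MX2* are nearly flat.

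The spread was therefore uneven among the members. *MX1*, *ISG15*, *OAS1*, *RSAD2*, *USP18* and *IFIT3*, 6 of the 8 (75%), had an SD above 0.5 on the log2 scale, against 400 of all 4730 measured genes (8.46%), and the median SD was 0.93 over the 8 genes and 0.22 over all measured genes. These 6 genes, grouped after their values were seen, ranged from 4.70-fold (*IFIT3*) to 10.3-fold (*RSAD2*) between the highest and the lowest animal. L5 was the lowest animal for 6 of the 6 genes, and L2 and L3 were each among the 3 highest for 6 of the 6. H4 was among the 3 highest for 4 of them, the exceptions being *OAS1* and *IFIT3*. The SD was larger in L than in H for all 6, by 1.25-fold for *ISG15* and by 4.24-fold for *IFIT3*; L2, L3 and L5 all belong to L. The mean of the 6 genes, each centred on its own mean over the animals, had an SD of 0.46 in H and 1.21 in L, with 7.55-fold between L2 and L5. Whether the groups differ in spread was not tested, since the set had been chosen with this pattern known. For the same reason the larger SD of these genes beside all measured genes is given as a description.

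Within the set, the 6 variable genes varied together. Over their 15 pairs, the median Pearson's r across the 10 animals was 0.80, between 0.62 for *ISG15* with *IFIT3* and 0.96 for *MX1* with *USP18*, and the median Spearman's rho was 0.70. *MX1*, *USP18*, *RSAD2* and *ISG15* formed the tightest group, and *OAS1* and *IFIT3* were less close to it. With each group centred on its own mean the median r of the 15 pairs was 0.81, nearly as without centring. *IRF1* correlated with the 6 genes with a median r of -0.19. *MX2* had a median r of -0.07 with them, but its probe set was too dim to tell whether the transcript followed them. *MX2* and *IRF1* had an r of 0.70 with each other but a rho of -0.31, and H4 was low for both.

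Over all 28 pairs of the 8 genes the median r was 0.65, and 8 pairs (28.6%) reached 0.8. Of the 11169901 pairs of all measured genes 0.764% did so, and their median r was 0.03. The set is taken as chosen by the way its genes varied together. This contrast is therefore a description and not evidence that the co-variation is unusual. L2 and L3 had the 2 scores most distant from the median score, and without them the median r was 0.28 over the 28 pairs and 0.60 over the 15 pairs. The range over the 15 pairs was then 0.14 to 0.95. The 10 points of each correlation share the same arrays and normalization.

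**Figure D2:**
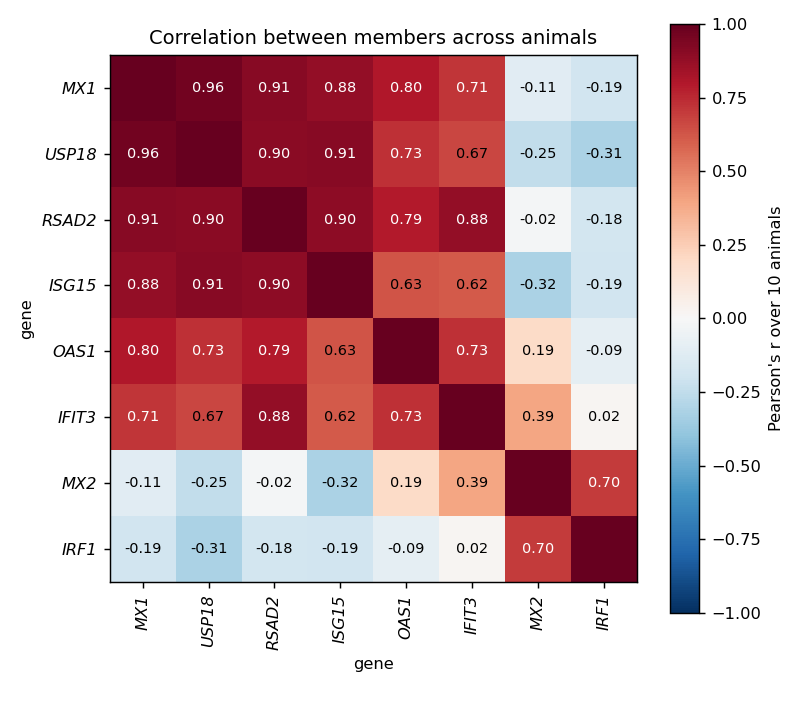
Pearson's r over 10 animals for each pair of the 8 measured genes (both axes list the genes; the colour scale runs from -1 in blue to 1 in red, and the diagonal is each gene with itself). The block of 6 genes holds values of 0.62 and above, while *MX2* and *IRF1* have values of at most 0.39 with these 6 genes and of 0.70 with each other. The values of *MX2* rest on a dim probe set.

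The comparison of H with L asked whether these genes differed between animals at the 2 ends of the ranking by muscle fatty acids. None of the 8 genes passed the test: with limma and Benjamini-Hochberg adjustment over all 4730 genes, 0 of 8 members and 0 of 4730 genes (0%) had an adjusted p under 0.05, and likewise 0 of 11776 probe sets (0%). At an unadjusted p under 0.05, 0 of the 8 were called, against 125 of 4730 genes (2.64%), 38 of them (0.803%) higher and 87 (1.84%) lower in H. The groups overlapped for all 8 members, while they did not overlap for 17 of all genes (0.359%). The adjusted p of the members lay between 0.985 and 0.999, and the exact two-sided permutation test over the animals gave a p of 0.325 for *IRF1*, the smallest, to 0.976 for *USP18*.

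The differences were small and their errors large. The largest was that of *OAS1*, whose mean was 6.48 ± 0.57 in H and 6.89 ± 1.30 in L (n = 5 animals per group, SD), with H minus L at -0.41 (SE 0.56). *ISG15* averaged 7.77 ± 1.10 in H and 8.04 ± 1.38 in L, a difference of -0.27 (SE 0.70). Leaving out 1 animal moved the difference of *OAS1* to between -0.86 (without L5) and -0.08 (without L3), and that of *ISG15* to between -0.69 (without L5) and 0.11 (without L2). For *RSAD2* (-0.04, SE 0.59), *USP18* (0.05, SE 0.53) and *IFIT3* (-0.02, SE 0.40) the difference was far below its error.

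The intervals were wide for the variable genes. The 95% interval of the ratio of H to L ran from 0.284 to 2.43 for *ISG15*, from 0.382 to 2.22 for *MX1* and from 0.318 to 1.79 for *OAS1*. It was narrow for *IRF1*, from 0.794 to 1.08, whose mean was 8.14 ± 0.20 in H and 8.25 ± 0.06 in L. Of the 8 differences 7 were below 0 and 1 above, with a median of -0.08, against a median of -0.04 over all genes, of which 2972 were below 0.

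**Figure D3:**
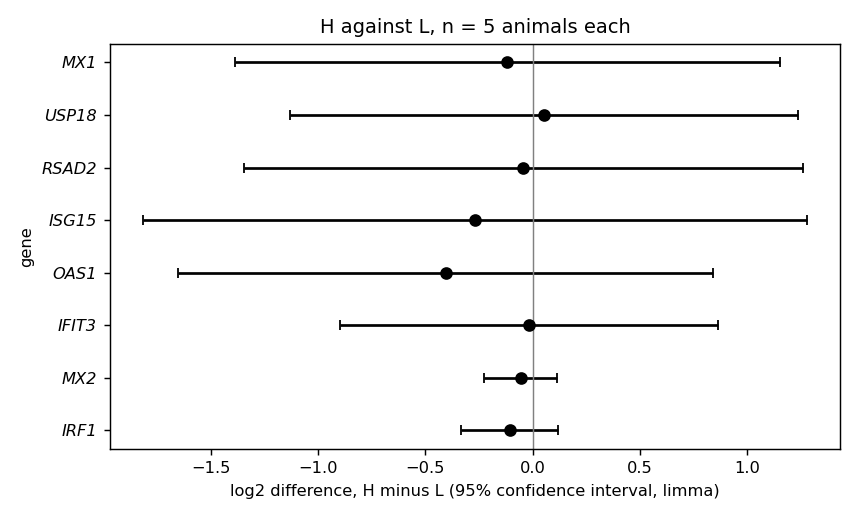
Difference of H minus L on the log2 scale (horizontal axis) for the 8 measured genes (vertical axis), with the 95% confidence interval of limma, n = 5 animals per group. All 8 intervals include 0, and those of *IRF1* and *MX2* are the narrowest.

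To place the set among the other genes, each gene outside it was correlated with the member score, the mean over the 8 genes of the log2 value centred on the mean of each gene. Of 4719 such genes, 19 (0.403%) reached an r of 0.8, and 9 of these were on 1 of 8 lists of the interferon pathway. Those lists held 149 genes, of which 76 had a probe set and 59 were measured, and the 9 are 15.3% of these. For the 59 genes the median r was 0.19, against 0.00 for all 4719 genes, of which the middle 90% lay between -0.56 and 0.56.

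The most alike gene was *DDX58*, which encodes RIG-I, the sensor of viral RNA, with an r of 0.97 and a rho of 0.98. *DDX58* had 6.61, 6.69, 6.01, 7.0 and 7.05 in H, against 6.24, 7.87, 7.29, 6.40 and 5.73 in L. L2 was highest and L5 lowest, as for *ISG15*, *RSAD2* and *IFIT3*, and its r without L2 and L3 was 0.94. *ZBP1*, a sensor of Z-form nucleic acids, had an r of 0.92, with 5.19 to 5.67 in H and 3.77 to 6.44 in L. The other measured genes of the sensor list, the adaptor *MYD88* (r 0.17) and the kinase *TBK1*, did not reach 0.8.

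Of 18 measured genes in the list of other antiviral genes, 6 reached 0.8 and the median r was 0.54. They were *IFI44L* (r 0.92), which is induced by type I interferon; the ADP-ribosyltransferase family members *PARP9* (0.90) and *PARP12* (0.85); *PHF11* (0.84); *EIF2AK2* (0.82), which encodes PKR, the kinase that stops translation on sensing double-stranded RNA; and *IFIT1* (0.82), which binds viral RNA. *PARP9* had 7.16, 7.12, 6.25, 6.78 and 7.37 in H, against 6.62, 7.95, 7.59, 6.90 and 5.91 in L. *IFIT1* had 8.07, 7.61, 7.81, 7.86 and 8.18 in H, against 7.41, 8.95, 8.44, 6.90 and 7.05 in L. In both genes L2 was the highest animal, while the lowest was L5 for *PARP9* and L4 for *IFIT1*.

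The IFIT genes, which lie side by side in the Sscrofa11.1 annotation, were closer to each other than to the score. *IFIT3* correlated with *IFIT1* with an r of 0.96 and with *IFIT2* with an r of 0.94, and *IFIT1* with *IFIT2* with an r of 0.89. The score had an r of 0.82 with *IFIT1* and 0.77 with *IFIT2*.

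Since the 9 pathway genes were picked by their r with a score that is highest in L2 and L3, the animals that top them follow from the choice and are given as a description. For 9 of 9 the highest animal was L2 or L3, and both were among the 3 highest for 9 of 9, while L5 was the lowest for 5 of 9. Without L2 and L3, 3 of the 9 still reached 0.8, namely *DDX58*, *ZBP1* and *IFI44L*. Leaving out 1 animal kept between 5 of the 9 (without L2) and all 9.

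**Figure D4:**
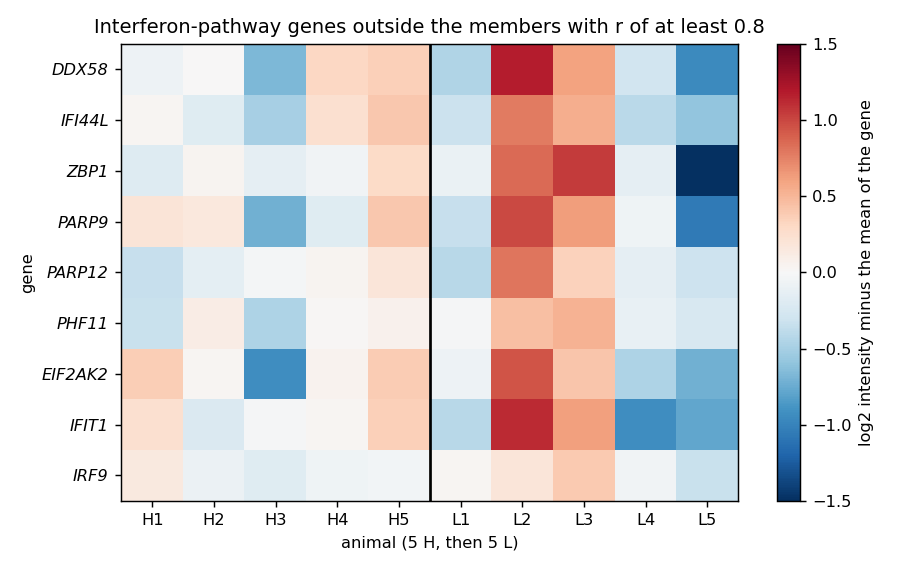
Log2 intensity minus the mean of each gene (colour, from -1.5 in blue to 1.5 in red) for the 9 interferon-pathway genes outside the members that had an r of at least 0.8 with the member score (vertical axis, highest r at the top), in each animal (horizontal axis, 5 H and then 5 L). L2 and L3 are red in all 9 rows.

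Upstream in the pathway, *IRF9*, the DNA-binding partner of *STAT2*, was the single one of 7 measured STAT and IRF genes to reach 0.8 (r 0.81), and it varied little, between 7.61 and 7.94 in H and between 7.46 and 8.18 in L. *STAT2* had an r of -0.11. Of 7 measured receptor and kinase genes none reached 0.8 and the median r was 0.04; the type I receptor chains *IFNAR1* and *IFNAR2* had an r of 0.46 and 0.47. Of the ligands, *IFNA1* was near 5.73 on 9 arrays and 6.02 in L2 (r 0.59, rho 0.70), and *IFNB1* and *IFNG* were near the lowest value of the table. *IRF7*, which sustains the type I response, was at 3.97 to 3.98 in 9 animals and 4.36 in L2 (r 0.59, rho 0.70). It passed the limit of 4 on the mean only through L2, so its r rests on that array.

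Of 17 measured targets of interferon gamma and class I genes 0 reached 0.8, where the share over all genes was 0.403%, and the median r was 0.14. The highest were *PSME2* (r 0.54, rho 0.66) and *PSME1* (0.52, rho 0.62), which encode the proteasome activator induced by interferon gamma. *CXCL9*, a chemokine that draws T cells, had an r of 0.44, *GBP1*, a GTPase acting on intracellular pathogens, -0.25, and *B2M*, the light chain of class I molecules, -0.01. None passed the test of H against L after adjustment. *SLA-2*, a class I heavy chain, had an unadjusted p of 0.00729 and an adjusted p of 0.985 (limma), with 11.45, 11.24, 11.76, 11.15 and 11.65 in H, against 11.55, 11.88, 12.36, 12.18 and 12.10 in L. Its groups overlapped through L1. The 8 interferon lists together held 0 genes past the adjusted threshold out of 59. At an unadjusted p under 0.05 there were 0 higher and 1 lower in H, that one being *SLA-2*. Over all 4730 genes 38 (0.803%) were higher and 87 (1.84%) lower at that level, so 1 of 59 is near the general share.

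Among 4 measured negative regulators, *PIAS1*, a SUMO ligase that restrains interferon signalling, had an r of -0.81, and the other 3 lay between -0.14 and 0.35. *PIAS1* varied little, between 7.56 and 7.80 in H and between 7.49 and 7.84 in L, with L2 lowest and L5 highest.

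Of the 10 most alike genes, 5 were on no list. *LOC733579*, which the annotation leaves without a gene name, had an r of 0.92. *ISG12(A)*, named in the annotation as an interferon-stimulated gene, had an r of 0.90. The lists were matched by symbol, so it was counted off them in spite of that name. *SCAMP2*, a secretory carrier membrane protein (0.87), *DBR1*, the RNA lariat debranching enzyme (0.86), and *C9H1orf27* (0.86) completed them, and *SCAMP2* had an SD of only 0.20 over the animals. *HSPA5*, the main chaperone of the endoplasmic reticulum, followed with an r of 0.84 and 0.94 without L2 and L3; it was chosen after its value was seen. The 5 genes with the lowest r were *SLC46A1*, a folate and haem transporter (-0.90), *ATRN*, attractin (-0.89), *EPHX1*, microsomal epoxide hydrolase (-0.83), *PAN3*, a subunit of a deadenylase (-0.82), and *CHD6*, a chromatin remodeller (-0.82).

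**Figure D5:**
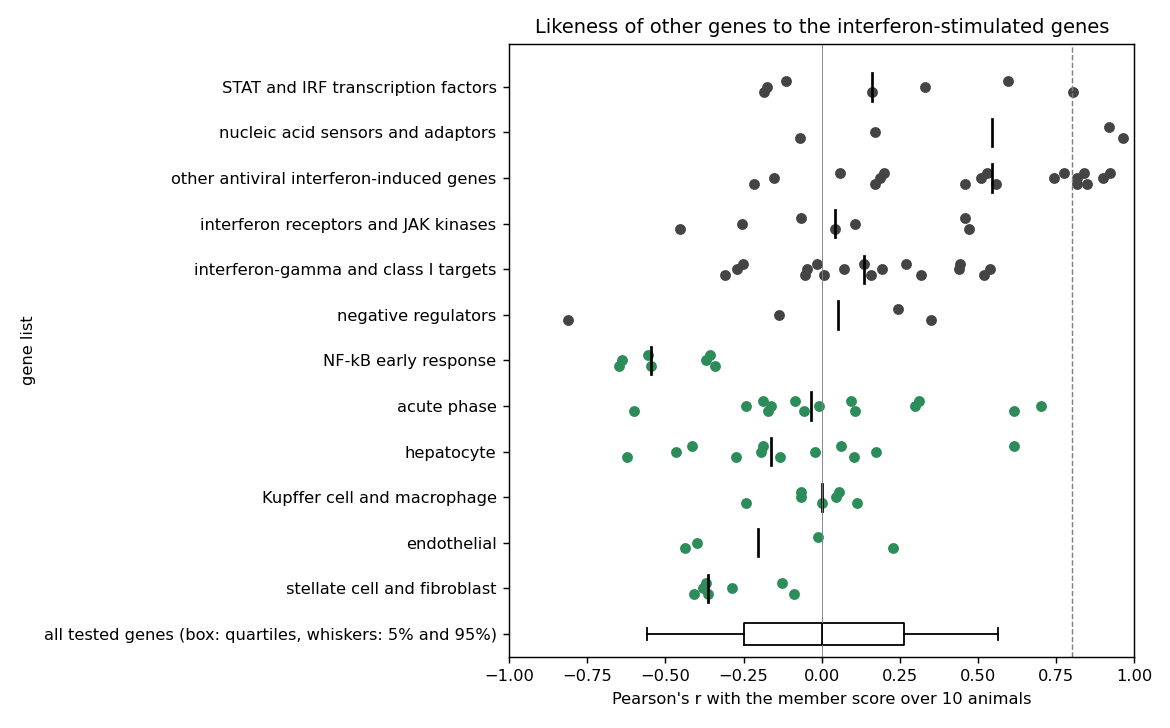
Pearson's r with the member score over 10 animals (horizontal axis) for each measured gene of 6 interferon lists (grey) and of 6 other lists (green), 1 point per gene and a bar at the median; the box shows all tested genes. The dashed line is r = 0.8, which genes of the sensor, antiviral and STAT and IRF lists reach and those of the other 9 lists do not.

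Markers of cell types were set beside the pattern. The summed linear intensity of 12 hepatocyte markers was 359298 to 402810 in H and 382377 to 411096 in L, and its log2 value had an r of -0.18 with the score. The sum of 7 measured Kupffer cell and macrophage markers, of 15 listed, was 8272 to 11244 in H and 8441 to 11307 in L, with an r of 0.02. It was 11307 in L2, 10015 in L3 and 8272 in H4, against 11056 in L5, the animal lowest for the 6 variable genes. Of 18 T and NK cell markers 3 were measured, with a sum of 98.5 to 163 in H and 107 to 206 in L and an r of 0.33, and *CD3D*, *CD3E*, *CD3G*, *CD4*, *CD8B* and *PRF1* were near the lowest value.

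The remaining cell type lists had few measured genes. Of 11 neutrophil markers 6 had a probe set and all 6 were near the lowest value. Of 9 plasmacytoid dendritic cell markers *IRF7* alone was measured, a gene that is also on the STAT and IRF list. Its mean of 4.01 passed the limit of 4 only through L2, at 4.36, with 3.97 to 3.98 in every other animal. Its r of 0.59, the highest among the cell type lists, therefore rests on 1 array and cannot speak for these cells. The linear intensity of *IRF7* was 15.7 in each H animal and 15.7 to 20.5 in L. Of 11 B and plasma cell markers 2 were measured, *XBP1* (mean log2 12.08, r 0.10) and *JCHAIN* (mean log2 10.03, r -0.07). Their sum was 4943 to 6677 in H and 4591 to 6780 in L, with an r of 0.14. It is made up mostly of *XBP1*, so it mainly shows that gene. *JCHAIN* was lowest in L2 (9.11) and highest in L3 (11.37). The endothelial (4 of 12, 969 to 1705 in H and 923 to 1764 in L, r -0.05), stellate cell (7 of 10, 2172 to 3063 in H and 1803 to 3477 in L, r -0.30) and erythroid (2 of 7, 415 to 746 in H and 439 to 593 in L, r 0.14) sums did not reach an r of 0.5 in size. The cholangiocyte sum (3 of 8, 688 to 1308 in H and 807 to 969 in L) had an r of 0.41. Its brightest gene was *CLDN4* (mean log2 9.07, r 0.57), while *SPP1* (8.06) had an r of 0.04 and *EPCAM* (6.21) one of -0.22. The 3 genes did not go together, so this sum cannot speak for these cells. The *GAPDH* 3' minus 5' difference had an r of -0.41 with the score and the array median one of -0.25. The *RSAD2* 3' minus middle difference had an r of 0.85 (rho 0.82); it contains a member's own level, and its middle probe set was near the lowest value on most arrays. The part of any of these in the pattern was not tested.

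Of the inflammatory lists, 14 measured acute phase genes had a median r of -0.03. The 7 measured genes of the early NF-kB and immediate early response all had an r below 0, between -0.65 and -0.34. *FOS*, an immediate early transcription factor, had 8.94, 9.04, 11.75, 10.86 and 7.75 in H, against 10.77, 9.07, 9.93, 11.68 and 12.50 in L. L5, the lowest animal for the 6 variable genes, was the highest for *FOS*, and L2 was among the lower ones. H minus L had a median of -0.53 over the 7 genes and was below 0 for all 7, as it was for 2972 of all 4730 genes. L5 was the highest animal for each of the 7 but *NFKBIA*, so they are not separate observations. By limma's test 0 of the 7 passed after adjustment or at an unadjusted p under 0.05, which 125 of all genes (2.64%) reached.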

How the data were processed

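The labels give 10 arrays of liver RNA, 5 H and 5 L. The authors read them with GCOS and made the deposited log2 intensities with GCRMA, which adjusts the background and normalizes; GCOS, GCRMA and RMA are in the submitters' processing notes, with versions not given in the sources used here. GCRMA leaves probe sets without signal at a common lowest value, which understates differences where signal is low. All 10 columns were used as deposited. Of 24123 probe sets, 10099 had 1 symbol in the platform annotation, 198 several and 13826 none; 9989 were named through their Entrez ID. Control probe sets with a member's symbol were kept, as the rule has it.

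With a minimum mean of 4, genes and 11776 probe sets were fitted in R 4.3.3 by lmFit and eBayes of limma 3.58.1, two-sided and without a covariate, with Benjamini-Hochberg adjustment over all tested and a threshold of 0.05. The study's methods give no test for the arrays. Correlations and exact permutation tests used Python 3.11.15, numpy 2.4.6, pandas 2.3.3 and scipy 1.17.1, and figures matplotlib 3.10.9. The fit and the correlations were first tested on simulated data. A change of sign between settings was counted as real only where the value was larger than its error in at least 1 of them.

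The members, lists and tests were chosen with earlier results of these data known. The text names the members, genes past the threshold, the 10 genes with the highest and the 5 with the lowest r with the score, and genes of the lists by role; exceptions are said to be such. The alternatives were other filters, normalizations, ways to join probe sets, priors, array weights, a covariate for the *GAPDH* difference, a block for the animal number, other kinds of correlation, and leaving out each animal. Leaving out the control probe sets, *MX2* and *IRF1* together, or the 2 farthest animals was added after the data were seen. Kinship was not modelled and the sources used here give no hybridisation batch. Arrays give no depth, and their number limits the precision. Promoter sequences were not used here.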

Additional observations from a re-analysis of the deposited data

Results flagged for a closer look

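*MX2* in H4 lay apart from the other H animals: its log2 intensity was 4.25, the nearest H animal had 4.51, and this gap was 0.827 of the whole range of H, above the 95% limit of Dixon's test for 5 samples, 0.71. It was 1 of 16 groups examined, 8 genes in 2 groups, and chance marks about 1 in 20. The *MX2* probe set was dim.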

How the results depend on the processing

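No gene passed the adjusted threshold in H against L under any of the 12 other settings or with any animal left out (0 in each; 90 to 281 genes at an unadjusted p under 0.05). Of 175 values of a member under another setting, 22 had another sign, 1 by more than its standard error and none past the threshold: *IFIT3* had H minus L at 0.33 (SE 0.279) without L2, against -0.02 with all animals, and leaving out 1 animal gave -0.23 (without L5) to 0.33. The ranges with 1 animal left out were -0.56 to 0.18 for *MX1*, -0.44 to 0.40 for *RSAD2*, -0.39 to 0.33 for *USP18*, -0.16 to -0.03 for *IRF1* and -0.08 to 0.00 for *MX2*. *MX2* could not be fitted with a filter of 6.

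The count of genes with an r of at least 0.8 was 19 with all animals, 33 with Spearman's rho, 31 with each group centred on its own mean, 61 without L2 and L3, and 19 to 70 with 1 animal left out. The single animals that moved it by over 1.5 times were L2 (70), L1 (34), H5 (30), H2 (29), L4 (29) and L5 (29). An r of 0.8 is easier to reach by chance with fewer animals, so counts with animals left out are not directly comparable with 19. Of the 19 genes, 13 remained without L2, 12 without L3, 10 without L5 and 9 without L2 and L3. The median r over the 28 pairs, 0.648, was 0.282 without L2 and L3 and 0.532 to 0.744 with 1 animal left out. The cause was not tested.

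With the animal number of the labels as a replicate block, 0 genes were called (140 at an unadjusted p under 0.05). Animals of the same number deviated with an r of -0.24 to 0.28, and only number 4 correlated best with its own. No sib pair is known here to compare with, so this check cannot say whether any number pairs sibs. The search of promoters for interferon response elements was not run. Limits are the 5 animals per group, the dim *MX2* probe sets and the common lowest value.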
